A study of Mus musculus with 7 samples.

Results

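The 6 genes described here belong to the inflammatory response and were followed over 7 mouse bone marrow arrays: the cytokines Il6 and Il1b, the chemokines Cxcl2 and Ccl4, and the intracellular proteins Tnfaip2 and Serpinb2. These genes, and the lists of genes set beside them later, were chosen with earlier results of these data known. Counts among them beside the shares over all probe sets or genes are therefore a description and not independent evidence. Each of the 6 genes was read by the probe sets annotated to its symbol and to no other. That rule gave 1 probe set per gene, so 6 of the 16255 probe sets that are no manufacturer controls, and 6 of the 8378 genes with a symbol of their own. The mock group held 3 arrays and the ABCG2 group 2 arrays, all of unsorted marrow taken from transplant recipients. The donor cells carried a mock control transgene or an ABCG2 transgene (the name of a membrane pump that exports drugs and dyes). The EZH2-Mt transgene (EZH2 is the gene of a histone methyltransferase; the mutation is not given in the sources used here) was represented by marrow of a recipient with a disease resembling myelodysplastic syndrome. That marrow was sorted on green fluorescent protein, with 1 array of GFP-negative and 1 array of GFP-positive cells.

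The labels do not say whether both fractions came from 1 mouse, and they call both a control. Vector, promoter, mouse strain, age and time after transplant are not given in the sources used here, nor is the share of unsorted marrow that carried a transgene. A tag (ser2) in the ABCG2 titles is absent from the other titles, and if it marks a batch, batch and transgene cannot be told apart. Recipient mice are not numbered, so the p-values measure the spread between arrays, which may be in part technical. Abcg2 was lower on the arrays labelled ABCG2 than on mock arrays, by -0.86 ± 0.13 (SE) on the log2 scale (limma adjusted p = 0.00168; 0.115 with quantile normalization), and lay 0.89 and 1.40 above the mock mean on the GFP-negative and GFP-positive EZH2-Mt arrays. Ezh2 lay -0.12 and -0.14 from the mock mean on those, and 0.54 above it on the ABCG2 arrays (limma adjusted p = 0.0315), a call lost with quantile normalization, with array weights and without mock replicate 1 or 3 or ABCG2 replicate 2 (adjusted p 0.0582 to 0.471). Whether these probe sets read the transgenes is not given, so they do not check the labels, and group names below are those of the labels.

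Values are log2 signals from which each probe set's median over the 7 arrays had been subtracted. They show differences between arrays but no level, so they cannot rank 1 gene above another. The log base is not stated, and fold changes take it as base 2; natural logs are not excluded, under which folds would be larger. The SD over all probe sets was 1.06 and 1.13 on the ABCG2 arrays and 0.33 to 0.54 on the other 5. Bacterial control probe sets lay apart on some arrays: BioC-5 was at 2.23 on the GFP-positive array, 0.93 on the GFP-negative array, -0.16 to 0.06 on mock arrays and -0.69 to -0.50 on ABCG2 arrays. The EZH2-Mt arrays stood further apart on DapX-5, which read 4.45 on the GFP-positive and 2.80 on the GFP-negative array. The ABCG2 arrays stood furthest apart on BioB, whose 4 probe sets read -4.07 to -2.87 there, against -0.48 to 0.17 on mock arrays, and on the DapX-5 control, which read -1.76 and -2.60 against -0.12 to 0.01. BioC, BioDn and CreX controls lay between -0.76 and 0.00 on the ABCG2 arrays. ThrX-M read 4.19 on the GFP-positive, 2.50 on the GFP-negative, -0.05 to 0.07 on mock and -0.93 and -1.46 on ABCG2 arrays. The other Lys, Phe and Thr controls were likewise higher than mock on both EZH2-Mt arrays and lower on both ABCG2 arrays.

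Il6 and Il1b are the messengers of acute inflammation: Il1b is made as a precursor that caspase-1 cuts, and Il6 signals through Il6ra and the shared subunit Il6st. Cxcl2 draws neutrophils through Cxcr2, and Ccl4 draws monocytes and lymphocytes. Toll-like and IL-1 receptors act through Myd88 on NF-kB, the transcription factor that switches these genes on, and the resulting mRNAs are short-lived because proteins such as Zfp36 bind AU-rich stretches in them. In marrow, monocytes, macrophages and neutrophil precursors are among their known sources. Tnfaip2 is a cytosolic protein induced by TNF, and Serpinb2 is plasminogen activator inhibitor 2, a serpin that activated macrophages produce in large amounts.

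The promoters of 4 of the genes that were lower together on the ABCG2 arrays are shown for the NF-kB and TATA letters near their starts. Each window holds 300 bases, from 250 before to 50 after the transcription start, 5' to 3' on the gene's strand, from RefSeq on GRCm38.p6. Capitals mark matches to the NF-kB motif on either strand and to TATAAA. Il6 lies at chr5:30012864-30013163 (plus strand), Il1b at chr2:129371090-129371389 (minus strand), Cxcl2 at chr5:90903649-90903948 (plus strand) and Tnfaip2 at chr12:111442411-111442710 (plus strand).
Il6: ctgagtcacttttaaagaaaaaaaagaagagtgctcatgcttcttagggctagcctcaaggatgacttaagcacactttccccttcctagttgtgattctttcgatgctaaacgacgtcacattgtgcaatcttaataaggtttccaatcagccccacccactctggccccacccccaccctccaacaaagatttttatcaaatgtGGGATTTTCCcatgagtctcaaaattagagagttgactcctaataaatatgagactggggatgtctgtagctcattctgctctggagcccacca
Il1b: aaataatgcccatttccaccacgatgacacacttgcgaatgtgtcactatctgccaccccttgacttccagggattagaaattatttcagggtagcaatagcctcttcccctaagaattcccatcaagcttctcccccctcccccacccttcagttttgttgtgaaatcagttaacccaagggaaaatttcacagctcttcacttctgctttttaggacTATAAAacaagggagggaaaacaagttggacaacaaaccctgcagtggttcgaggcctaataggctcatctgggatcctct
Cxcl2: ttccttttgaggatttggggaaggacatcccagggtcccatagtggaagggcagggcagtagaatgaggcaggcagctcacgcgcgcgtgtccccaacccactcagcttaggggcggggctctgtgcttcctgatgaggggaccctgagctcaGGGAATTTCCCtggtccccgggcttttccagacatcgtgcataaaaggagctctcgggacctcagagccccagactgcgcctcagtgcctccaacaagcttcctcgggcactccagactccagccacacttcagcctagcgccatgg
Tnfaip2: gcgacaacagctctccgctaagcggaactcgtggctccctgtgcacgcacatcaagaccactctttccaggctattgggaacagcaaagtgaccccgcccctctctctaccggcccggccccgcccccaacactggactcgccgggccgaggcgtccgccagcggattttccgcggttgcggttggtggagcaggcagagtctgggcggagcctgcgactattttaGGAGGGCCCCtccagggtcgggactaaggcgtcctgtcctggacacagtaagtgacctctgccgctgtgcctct

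In the Il6 window, the NF-kB match covered bases -44 to -35 from the start, with a C/EBP match (TTNNGCAA) at -128 to -121 and an AP-1 match (TGANTCA) at -249 to -243. Cxcl2 had NF-kB matches on both strands that overlap, at -97 to -88 and -96 to -87, and a PU.1 match (GAGGAA) on the reverse strand at 2 to 7. The Tnfaip2 match to NF-kB, on the reverse strand, lay at -24 to -15. Il1b had none of these in its window and held TATAAA at -31 to -26. Both strands were searched for each motif. Among all 32851 RefSeq windows of the same length, 8.46% held an NF-kB match, 10.8% a C/EBP match, 7.81% an AP-1 match, 28.3% GAGGAA and 13.6% TATAAA. Serpinb2 had 2 windows, and its first, at chr1:107511173-107511472 (plus strand), held TATAAA at -29 to -24, AP-1 at -94 to -88 and C/EBP at -202 to -195. A match is a description of letters, not a site, and no match says only that these letters are not in this window; windows were found for 5 of the 6 genes, all but Ccl4.

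The first comparison asked how marrow carrying ABCG2 differed from mock marrow. Of the 6 genes, 5 fell: Il6, Il1b, Cxcl2, Tnfaip2 and Serpinb2, by 13.2-fold to about 30-fold. Ccl4 did not pass the test. The test was limma's moderated test on 2 against 3 arrays, with Benjamini-Hochberg adjustment over all 16255 probe sets and a threshold of 0.05. The same test called 25.3% of all probe sets lower and 31.5% higher, so calls were frequent in both directions. Both ABCG2 arrays lay below all mock arrays for 5 of the 6 genes (32.6% of all probe sets) and below the other 5 arrays for the same 5 (27.5%). The median difference was -4.69 over the 6 genes and 0.11 over all probe sets. On the deposited values, 112 probe sets, or 0.689%, were called lower by at least as much as Tnfaip2. The genes were chosen with earlier results of these data known and set this cut themselves, so the share is a description and no test. With quantile normalization between arrays, the calls of Il6 (adjusted p = 0.0603), Cxcl2 (0.167) and Serpinb2 (0.155) were lost and those of Il1b and Tnfaip2 held. The bacterial control BioB, added to the samples, was also lower on the same arrays (BioB-M at -3.24 and -3.15, against -0.48 to 0.08 on mock arrays). BioC, BioDn and CreX controls lay between -0.76 and 0.00 there. The bearing of the controls on these falls was not tested.

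**Figure D1:**
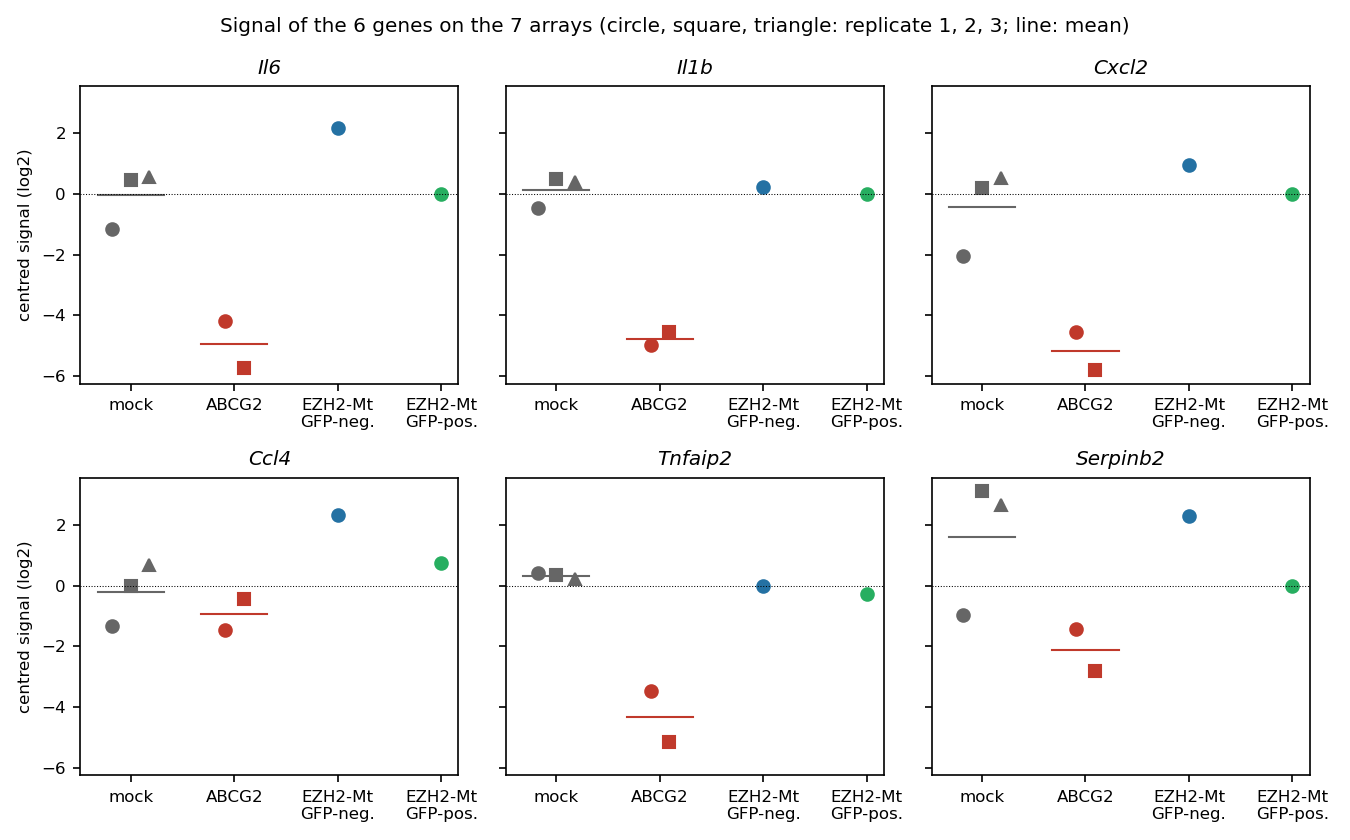
Log2 signal, centred on each probe set's median, of the 6 genes on each of the 7 arrays; each point is 1 array and colours and positions mark the group. Both ABCG2 arrays lie below the other 5 for every gene but Ccl4, and the GFP-negative EZH2-Mt array is the highest for Il6, Cxcl2 and Ccl4.

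Of the cytokines, Il6 was at -1.16, 0.46 and 0.56 on the mock arrays and at -4.17 and -5.73 on the ABCG2 arrays. The groups did not overlap, and the first mock array lay apart from the other two. The difference was -4.91 ± 0.64 (SE), with a 95% interval of -6.46 to -3.36 and a limma adjusted p of 0.00115, which leaves 3.33% of the mean mock signal. Il1b was at -0.47, 0.50 and 0.39 in mock and at -4.97 and -4.56 in ABCG2 marrow. Its mock arrays kept closer together, and the distance from the lowest mock to the highest ABCG2 array was 4.09. Its difference of -4.90 ± 0.32 (29.9-fold, limma adjusted p = 8.99e-05) had the narrowest interval of the 6 genes, -5.67 to -4.14.

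The chemokines parted. Cxcl2 was at -2.03, 0.21 and 0.54 on the mock arrays and at -4.54 and -5.80 on the ABCG2 arrays. Mock replicate 1 was well below the other mock arrays yet above both ABCG2 arrays. The difference was -4.74 ± 0.79 (26.8-fold, limma adjusted p = 0.00288). Ccl4 was at -1.33, 0.00 and 0.69 in mock and at -1.45 and -0.44 in ABCG2 marrow, so the second ABCG2 array lay within the mock range. Its difference was -0.73 ± 0.60 (limma adjusted p = 0.332), and the 95% interval of -2.17 to 0.71 reaches well below 0. Leaving out 1 array at a time moved it from -1.29 (without mock replicate 1, adjusted p = 0.0507) to -0.28 (without mock replicate 3, 0.694) and -0.22 (without ABCG2 replicate 1, 0.81). Whether Ccl4 differed less than the other genes was not tested.

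Of the intracellular proteins, Tnfaip2 was at 0.41, 0.36 and 0.22 on the mock arrays and at -3.47 and -5.16 on the ABCG2 arrays. The mock arrays were the tightest of any of the 6 genes (SD 0.10, n = 3) and the ABCG2 arrays differed by 1.69. The difference was -4.65 ± 0.45 (limma adjusted p = 0.000358). Its probe set is of the type that the array's design marks as able to read related transcripts. Serpinb2 was at -0.98, 3.12 and 2.64 in mock and at -1.43 and -2.82 in ABCG2 marrow. Mock replicate 1 lay only 0.45 above the higher ABCG2 array. The difference of -3.72 ± 1.20 (13.2-fold) passed narrowly (limma adjusted p = 0.0361). It was lost without mock replicate 2 (-2.96, adjusted p = 0.0942), mock replicate 3 (-3.20, 0.102) or ABCG2 replicate 2 (-3.03, 0.14), and without mock replicate 1 it was -5.01 (0.00172).

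**Figure D2:**
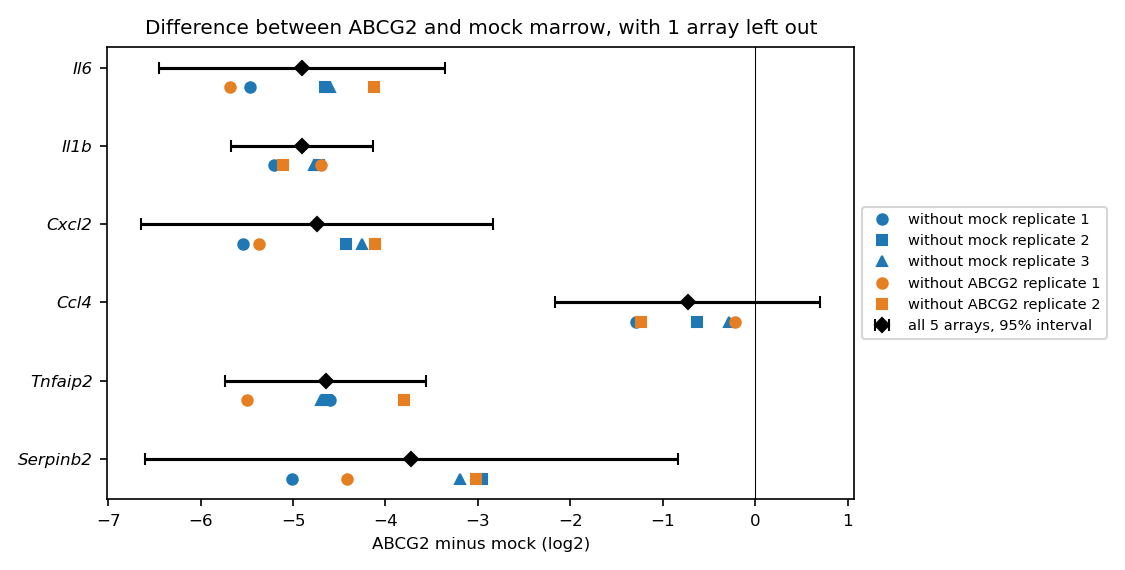
Difference in log2 signal between ABCG2 and mock marrow for the 6 genes, with points for the estimates and bars for the 95% intervals of limma (2 against 3 arrays). Only the interval of Ccl4, -2.17 to 0.71, includes 0, and that of Serpinb2, -6.60 to -0.84, is the widest.

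Markers of cells among the known sources of these transcripts moved in the same comparison. All 12 measured of 18 monocyte and macrophage markers fell, with a mean over the list of 0.88 to 0.96 on mock arrays and of -3.26 and -3.27 on ABCG2 arrays. So did all 5 measured markers of neutrophil primary granules (median difference -6.13) and all 16 measured markers of maturing neutrophils (-3.84). Of 8 measured B lineage markers, 4 rose and none fell. Markers of each marrow lineage listed were among the measured values. In whole marrow, fewer cells of a type and less RNA per cell cannot be told apart, and the part of cell makeup in the falls of the 6 genes was not tested. Of the other marker lists, T and NK cells had 2 higher and 1 lower of 5 measured, plasma cells 2 and 1 of 6, basophils, mast cells and eosinophils 1 and 3 of 5, dendritic cells and MHC class II 2 and 3 of 9, erythroid cells 1 and 3 of 9, and stem and progenitor cells 4 and 2 of 8.

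The next comparison set the EZH2-Mt fractions against mock marrow, with 1 array per fraction and so no test. In the GFP-negative fraction Il6, Cxcl2 and Ccl4 were 2-fold or more above the mock mean. Il6 read 2.17 there, 2.22 above the mock mean and 1.61 above the highest mock array. Ccl4 read 2.33, 2.54 above the mock mean. Cxcl2 read 0.96, only 0.42 above the highest mock array, and without mock replicate 1 its distance from the mock mean shrank from 1.39 to 0.59, under the 2-fold limit. These 3 genes were also highest on this array among all 7 arrays. Of all probe sets, 4.1% were 2-fold or more above the mock mean in this fraction, 39.1% were above all mock arrays and 11.2% were highest of all 7. None of the 6 genes was 2-fold or more below the mock mean, against 2.34% of all probe sets. On the same array, 4 of 5 T and NK cell markers and 4 of 9 erythroid markers were 2-fold or more above the mock mean. So were 2 of 8 B lineage markers and 2 of 5 basophil, mast cell and eosinophil markers. As far below it were 8 of 12 monocyte and macrophage, 4 of 6 plasma cell and 3 of 9 dendritic cell and MHC class II markers. The part of these cells in the values of the 6 genes was not tested.

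In the GFP-negative fraction Il1b read 0.25, within the mock range and 0.11 above the mock mean. Tnfaip2 read 0.00, -0.33 from the mock mean and below all mock arrays, as 30.8% of probe sets were. Serpinb2 read 2.28, between its low mock replicate 1 and its 2 high mock replicates. It was 0.69 above the mean of the 3 mock arrays and -0.59 from that of replicates 2 and 3, and it passed the 2-fold limit without mock replicate 2 (1.45) or 3 (1.22). In the GFP-positive fraction, Il6, Il1b and Cxcl2 read 0.00 and lay within the mock range. Ccl4 read 0.74, just above the highest mock array at 0.69; 43.4% of probe sets lay above all mock arrays. None of the 6 genes was 2-fold or more above the mock mean (7.97% of all probe sets), but Ccl4 was so without mock replicate 2 (1.06) or 3 (1.40). Tnfaip2 read -0.28, below all mock arrays, as 33.6% of probe sets were. Serpinb2 read 0.00, -1.59 from the mock mean and the only one of the 6 genes 2-fold or more below it, against 4.2% of all probe sets; without mock replicate 1 the distance was -2.88 and without replicate 2 it was -0.83, under the limit. On that array 7 of 9 erythroid, 8 of 16 maturing neutrophil and 3 of 5 neutrophil primary granule markers were 2-fold or more above the mock mean. So were 3 of 5 T and NK cell, 5 of 8 B lineage and 1 of 6 plasma cell markers. As far below it were 7 of 12 monocyte and macrophage markers, with 1 above, and 2 of 9 dendritic cell and MHC class II markers.

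**Figure D3:**
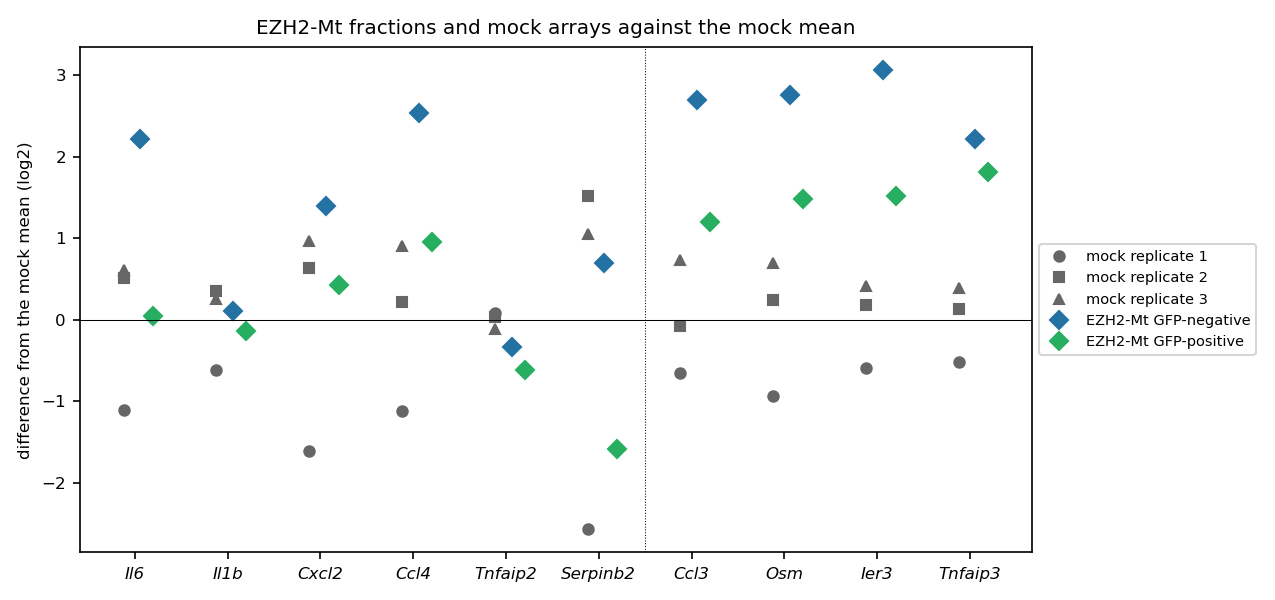
Distance in log2 signal of the GFP-negative and the GFP-positive EZH2-Mt array (1 array each) from the mean of 3 mock arrays for the 6 genes and, right of the dotted line, Ccl3, Osm, Ier3 and Tnfaip3; grey symbols are the single mock arrays. Il6 and Ccl4 stand 2.22 and 2.54 above the mock mean in the GFP-negative fraction, beyond the mock arrays.

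Set directly against each other, the GFP-positive array was 2-fold or more below the GFP-negative array for 3 of the 6 genes. They were Serpinb2 (-2.28), Il6 (-2.17) and Ccl4 (-1.59), against 2.04% of all probe sets (3.09% were as far above). The distance stayed under 2-fold for Cxcl2 (-0.96), Tnfaip2 (-0.28) and Il1b (-0.25). The median over all probe sets was 0.03. These are 2 single arrays, and the bacterial controls were higher on the GFP-positive array. T and NK cell markers averaged 1.34 on the GFP-negative and 0.07 on the GFP-positive array, erythroid markers 0.80 and 1.94, monocyte and macrophage markers -0.12 and 0.12, maturing neutrophil markers 0.25 and 0.66, neutrophil primary granule markers 0.21 and 1.04, plasma cell markers -1.03 and 0.23, and B lineage markers 0.24 and 0.75. The part of these cells in the difference was not tested.

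Both ABCG2 arrays were 2-fold or more below both EZH2-Mt arrays for all 6 genes, Ccl4 included, as for 11.3% of all probe sets; 9.15% were as far above. With quantile normalization this held for 4 of the 6 genes, and the distance was 0.89 for Ccl4 and 0.78 for Serpinb2. The distance from the higher ABCG2 to the lower EZH2-Mt array was 4.56 for Il1b, 4.54 for Cxcl2, 4.17 for Il6, 3.19 for Tnfaip2, 1.43 for Serpinb2 and 1.17 for Ccl4. The 2 sorted fractions are different populations, so no test was made.

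The mock arrays themselves differed. Mock replicate 1 was the lowest, and 2-fold or more below the mean of replicates 2 and 3, for Serpinb2 (-3.86), Cxcl2 (-2.41), Ccl4 (-1.68) and Il6 (-1.67). Only 1.15% of all probe sets did this, and 3.74% spanned 2-fold or more over the mock arrays, as the same 4 genes did. For Il1b the distance was -0.92, and for Tnfaip2 it was 0.12. T and NK cell markers averaged -2.47 on mock replicate 1 against -0.12 and -0.52, erythroid markers -0.90 against 0.11 and 0.29, basophil, mast cell and eosinophil markers -0.78 against 0.30 and 0.30, and dendritic cell and MHC class II markers 0.00 against 0.94 and 0.77. Monocyte and macrophage markers did not set it apart, at 0.88 to 0.96 on the 3 mock arrays. The part of those cells in the low values was not tested.

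Around the 6 genes, 9 lists of pathway genes held 219 genes, of which 133 were measured. Between ABCG2 and mock marrow 60 of these fell, 22 rose and 51 did not pass (limma per gene, adjusted over all 8378 genes), where 26.2% of all genes fell and 35.6% rose. The median was -0.50 over the lists and 0.15 over all genes. With quantile normalization 50 fell and 8 rose. The lists were chosen with earlier results of these data known, so their counts beside those of all genes are a description.

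**Figure D4:**
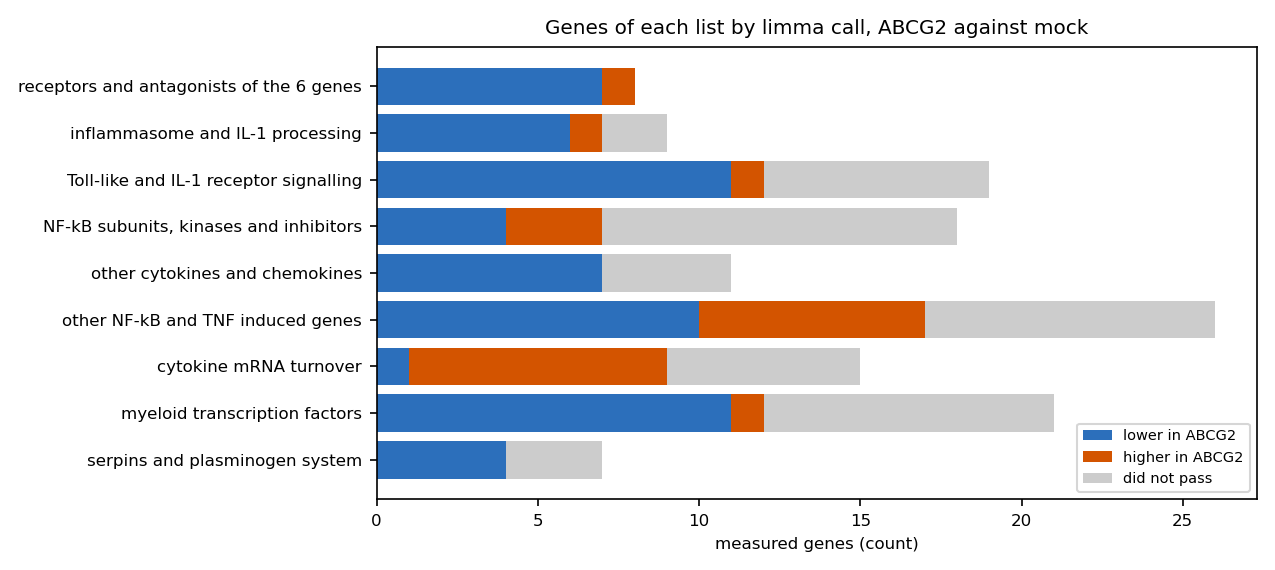
For each of the 9 pathway lists, the number of measured genes that rose, fell or did not pass between ABCG2 and mock marrow (limma per gene, adjusted p under 0.05). Receptors and antagonists stand at 7 lower of 8, and cytokine mRNA turnover at 8 higher of 15.

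Receptors and antagonists fell together: 7 of 8 measured genes fell and 1 rose. Ccr1, a receptor for several CC chemokines, was at 0.26, 0.25 and 0.40 in mock and at -5.06 and -6.70 in ABCG2 marrow, a difference of -6.19 ± 0.43 (limma adjusted p = 7.25e-05). Il1rn, the secreted antagonist of IL-1, changed by -4.25 ± 0.15 and Il6ra, the binding chain for Il6, by -4.04 ± 0.21. Ccr2, the monocyte chemokine receptor, changed by -3.10 ± 0.25, with its 3 probe sets between -4.02 and -1.69. The shared chains Il1rap (-1.98 ± 0.15) and Il6st (-1.05 ± 0.16) fell less far. Il1r2, the decoy receptor of IL-1, was at -1.77 and -5.91 on the ABCG2 arrays; its call (adjusted p = 0.018) was lost when any mock replicate was left out (adjusted p 0.0512 to 0.0519), and its difference of -3.85 was -1.78 without ABCG2 replicate 2 and -5.92 without ABCG2 replicate 1. Sigirr, a receptor that dampens IL-1 and Toll-like signals, was the one that rose, by 2.17 ± 0.15, with -0.65, -0.54 and -0.91 in mock and 1.46 and 1.48 in ABCG2 marrow. Ccr2 and Il1r2 also stand in the monocyte and neutrophil marker lists. In the other pathway lists, Cd14 also stands in the monocyte, Ccl5 in the T and NK cell and Irf8 in the dendritic cell marker list. Il1r1 and Cxcr2 were not among the analysed values.

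Of 9 measured inflammasome and IL-1 processing genes, 6 fell and 1 rose. Casp1, which cuts the Il1b precursor, was at 0.44, 0.12 and 0.36 in mock and at -1.74 and -2.19 in ABCG2 marrow (-2.27 ± 0.19). The adaptor Pycard changed by -1.24, the sensors Naip2 by -4.89 and Mefv by -3.85. Il18, the other cytokine that caspase-1 cuts, rose by 0.87 (adjusted p = 0.00921; 0.367 with quantile normalization). Of 19 measured Toll-like and IL-1 receptor signalling genes, 11 fell and 1 rose. Cd14, the lipopolysaccharide co-receptor, changed by -6.05, Tlr13, a sensor of bacterial ribosomal RNA, by -5.55, Tlr2, a sensor of lipoproteins, by -4.84 and the adaptor Myd88 by -1.78. Tab1, a partner of the kinase Tak1, rose by 0.61, a call lost without mock replicate 2, mock replicate 3 or ABCG2 replicate 2 (adjusted p 0.0694, 0.0803 and 0.149) and with quantile normalization (0.0986).

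Of 18 measured NF-kB subunits, kinases and inhibitors, 4 fell, 3 rose and 11 did not pass; with quantile normalization 2 fell and 0 rose. Rela, the main activating subunit, was at -0.01, 0.06 and 0.00 in mock and at 0.45 and -0.03 in ABCG2 marrow (0.19, limma adjusted p = 0.356). Rel was at -0.87 (adjusted p = 0.129; 0.00282 without ABCG2 replicate 1, when it was -1.66, against -0.08 without ABCG2 replicate 2). Relb rose by 1.26 and Nfkb2, its partner in the alternative pathway, by 0.77; both calls were lost without ABCG2 replicate 1 (adjusted p 0.0924 and 0.15), and that of Nfkb2 also without mock replicate 1 or 3 (0.0645 and 0.0629). The inhibitor Nfkbia fell (-1.02 over 5 probe sets), Nfkbie rose (1.74), the kinase Ikbke fell (-1.14) and the co-activator Bcl3 fell (-1.20). Nfkbiz, a nuclear cofactor needed for Il6 induction, changed by -0.89 over 3 probe sets that ranged from -2.47 to 0.27, and lost its call without mock replicate 2 or 3 or ABCG2 replicate 1 (adjusted p 0.0592, 0.0649 and 0.0949). With quantile normalization Relb, Nfkb2, Nfkbia, Nfkbie and Nfkbiz did not pass (adjusted p 0.13, 0.0772, 0.0574, 0.0902 and 0.107).

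Other cytokines and chemokines had 7 lower and 0 higher of 11 measured genes. Ccl6, a CC chemokine of myeloid cells, changed by -5.63 and Il15, a growth factor of NK and memory T cells, by -4.40. Ccl3, the close relative of Ccl4, was at -0.58, 0.00 and 0.81 in mock and at -1.97 and -0.90 in ABCG2 marrow. Its difference of -1.51 ± 0.46 (limma adjusted p = 0.0265) was lost without mock replicate 2 or 3 or ABCG2 replicate 1 (adjusted p 0.064, 0.0587 and 0.134) and with quantile normalization (0.247). Tnf, the cytokine that induces Tnfaip2, was at 0.46, 1.25 and 0.00 in mock and at -0.35 and 1.28 in ABCG2 marrow, with no call (adjusted p = 0.875). Of 26 measured other NF-kB and TNF induced genes, 10 fell and 7 rose (4 with quantile normalization). Clec4e, a sensor of mycobacterial glycolipid, changed by -5.72 and the adhesion molecule Vcam1 by -3.53, while the phosphatase Dusp2 rose by 3.70 and Marcksl1 by 1.66.

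Of 15 measured genes of cytokine mRNA turnover, 8 rose and 1 fell. Only 5 were higher without mock replicate 2 or without ABCG2 replicate 1, and 3 were lower without the latter; with quantile normalization 3 were higher and 0 lower. Zfp36l1, a relative of Zfp36 that binds the same AU-rich stretches, was at -0.58, 0.16 and -0.02 in mock and at 2.89 and 2.85 in ABCG2 marrow (3.02 ± 0.23, limma adjusted p = 9.26e-05). Tia1, which restrains translation of such mRNAs, rose by 1.84. Zfp36 itself was at -1.01, -0.28 and 0.00 in mock and at -0.27 and 0.65 in ABCG2 marrow (0.62, adjusted p = 0.186; 0.33 without mock replicate 1, 0.16 without ABCG2 replicate 2 and 1.08 without ABCG2 replicate 1). The kinase Mapkapk2, which stabilises cytokine mRNAs, was the one that fell, by 0.92 (adjusted p = 0.00789; 0.0549 with quantile normalization).

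Myeloid transcription factors had 11 lower and 1 higher of 21 measured genes. Cebpd changed by -5.31, Spi1, which encodes PU.1, by -2.80 and Cebpb, a known activator of Il6, by -1.75, while Maf rose by 1.39 (adjusted p = 0.0994 with quantile normalization). The 2 ABCG2 arrays differed for Cebpb (-0.74 and -2.40), and its difference was -0.92 without ABCG2 replicate 2 and -2.58 without ABCG2 replicate 1; that of Maf was 0.92 without ABCG2 replicate 1. Serpins and the plasminogen system had 4 lower and 0 higher of 7 measured genes. Anxa2, a surface receptor for plasminogen, changed by -5.42 and Plaur, the urokinase receptor, by -2.65, the latter from 0.00, 0.37 and 0.24 in mock to -1.41 and -3.49, and to a difference of -1.61 without ABCG2 replicate 2.

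In the EZH2-Mt fractions, some of the other named genes were also above mock and others below it, again with 1 array each and no test. Ccl3 was 2.70 above the mock mean in the GFP-negative and 1.20 above it in the GFP-positive fraction. Osm, oncostatin M, a cytokine of the Il6 family, was 2.76 and 1.49 above it. It was named for a profile close to that of Ccl4 over all arrays, the EZH2-Mt arrays included. Its high values there, and their order, are therefore no separate observation. Tnfaip3, the A20 protein that ends NF-kB signalling, was 2.22 and 1.82 above the mock mean, and Zfp36 1.74 and 1.49. Ier3, an immediate early gene chosen after its values were seen, was 3.07 and 1.52 above it. For all 5, the GFP-negative array was the higher of the pair. Other named genes had the opposite order, as Ikbke did at 0.80 and 1.22 above the mock mean. Mock replicate 1 lay below the mean of replicates 2 and 3 for Ccl3 (-0.98), Osm (-1.40), Tnfaip3 (-0.78), Zfp36 (-0.87) and Ier3 (-0.89), which lowered their mock means. Of all probe sets, 4.1% in the GFP-negative and 7.97% in the GFP-positive fraction were 2-fold or more above the mock mean. As far below it were 2.34% and 4.2%. Il1rn lay -1.87 and -1.80 and Ccr2 -1.79 and -2.12 from the mock mean. Cd14 lay -0.91 and -1.21 from it, and Tlr2 -1.52 and -1.60. Il15 lay -1.26 and -1.86, Tlr13 -1.17 and -1.25 and Tnf -0.89 and -1.01 from it. Of 11 measured other cytokines and chemokines, 3 were 2-fold or more above the mock mean and 2 below it in the GFP-negative fraction. In the GFP-positive fraction 3 were above and 4 below.

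**Figure D5:**
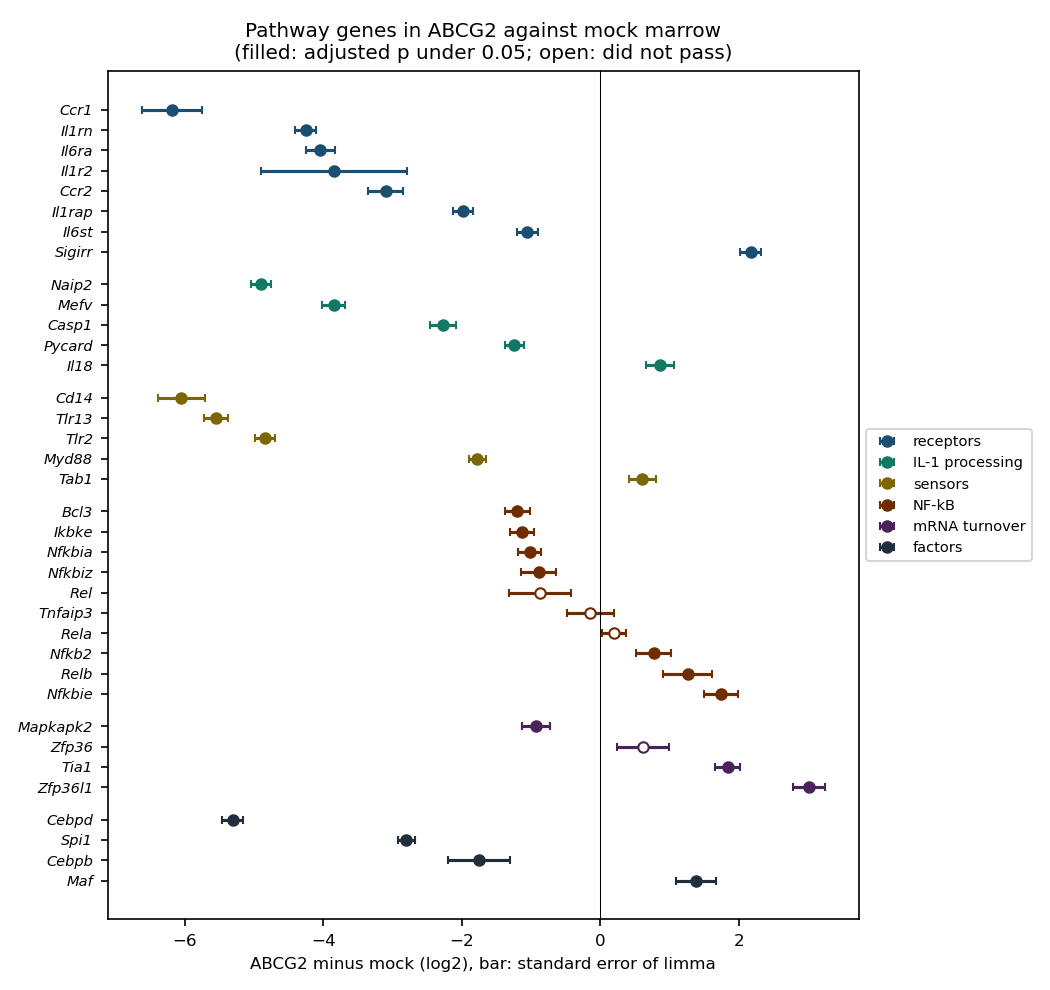
Difference in log2 signal between ABCG2 and mock marrow for a selection of the named pathway genes. Others, such as Dusp2 and Ccl6, are not shown. Points are the estimates and bars their standard errors (limma per gene, 2 against 3 arrays). Filled points passed the test and open points did not. Ccr1 and Cd14 lie lowest at -6.19 and -6.05, and Sigirr and Zfp36l1 are among the genes above 0.

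Genes with the most similar profile were found for each of the 6 by the root mean square difference over the 7 arrays, in log2 units, which include the ABCG2 and mock arrays compared above. Il6 was closest to Cxcl2 (0.59), G0s2 (0.80) and Ear3 (0.80). Cxcl2 was closest to Ear3 (0.51), Prg2 (0.54) and Il6. Ear3 is one of a family of closely similar ribonucleases, so its probe set may read relatives. Ccl4 had Osm (0.29), Ccl3 (0.47) and Cd3d (0.51), a T cell receptor chain, as its nearest profiles. Tnfaip2 had the closest neighbours of all, Fam217b (0.22), Rab32 (0.24) and Emilin2 (0.25). Il1b was nearest to Rnf144b (0.31), Zfp991 (0.35) and Znf41-ps (0.37), of which the last pair belong to zinc finger families with similar copies. Serpinb2 had no close profile: Hpgd (1.23), Car1 (1.29) and Adgre4 (1.29) were the nearest. Among the 6 genes, Il6 and Cxcl2 were the closest pair, followed by Il1b and Tnfaip2 (0.72), and Ccl4 and Cxcl2 the farthest apart (2.43).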

How the data were processed

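RNA of 7 marrow samples had been hybridised to Affymetrix mouse expression arrays. Per the submitters' processing notes, the authors used MAS5; no version is given in the sources used here. The deposited values are log2 (base assumed), centred by the authors on each probe set's median over the 7 arrays. Per the file headers, probe sets were kept with raw signals between 3 and 120534 and called Present or Marginal on every array (100% of samples), so a probe set that falls out of detection on 1 array is missing. Of 16309 probe sets, 54 controls were left out. GEO's platform annotation gave 14229 probe sets 1 symbol, 483 several and 1543 none; 14203 matched RefSeq by gene ID, with 0 symbols changed. Means over a gene's probe sets served the lists and named pathway genes.

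ABCG2 and mock arrays were compared with limma 3.58.1 (R 4.3.3; lmFit and eBayes, two-sided, Benjamini-Hochberg, adjusted p under 0.05), tested on simulated data. EZH2-Mt arrays, 1 per fraction, were described against a 2-fold limit. The number of arrays limits the precision. Named genes were the 6 genes, a set always named, the 2 largest falls and rises passing in each pathway list, and 3 nearest profiles per gene. Members and lists were chosen with earlier results of these data known. Alternatives were quantile normalization, median centring of arrays, array weights, robust eBayes, a replicate block, a fit with all 7 arrays, leaving out each replicate, other summaries of probe sets and the mock median.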

Additional observations from a re-analysis of the deposited data

How the results depend on the processing

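The fall of Il1b and Tnfaip2 on the ABCG2 arrays kept its direction and its call under every alternative run, and that of Il6 and Cxcl2 under all but quantile normalization. With quantile normalization, which by construction maps the wider ABCG2 distribution onto the average one, 2 of the 6 genes were called; Il6 was at -2.46, Cxcl2 at -2.11, Serpinb2 at -3.40, Il1b at -2.79 and Tnfaip2 at -2.70. It called 2350 probe sets lower and 2112 higher against 4112 and 5122, gave 8 pathway genes higher against 22, and kept 39 of 58 named genes. Tnfaip3, not called as deposited, turned to 0.13. Over leave-one-out fits the calls among the 6 genes numbered 4 to 5, and Serpinb2 ranged from -5.01 to -2.96. Rela ranged from -0.046 to 0.44, Tnf from -0.92 to 0.71 and Tnfaip3 from -0.54 to 0.26, so none of these 3 has a direction. Of the 6 genes, 0 to 1 were 2-fold or more above the mock mean in the GFP-positive fraction, and 0 to 1 below it. The replicate block gave 4 calls, with Serpinb2 at -3.20 and Tnfaip3 at 0.056; Nfkb2 and Tab1 also lost their calls, Zfp36 gained one (0.84, adjusted p = 0.0133), and 3 myeloid transcription factors rose against 1. The deviations of same-numbered mock and ABCG2 arrays from their group means correlated at 0.08 and -0.04. With 2 ABCG2 arrays these deviations mirror each other, so the values cannot decide whether same-numbered samples were paired. Where no cause is named, the cause was not tested. A filter on low values was not run, because centred values hold no level; how far signals lay above background is not known here.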
